A study of Mus musculus with 4 samples.

Results

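The 9 genes followed here, which textbooks name as direct targets induced by glucocorticoids, are Tsc22d3, Sgk1, Ddit4, Glul, Mt1, Mt2, Errfi1, Lcn2 and Nfkbia, and the question was where the glucocorticoid receptor (GR) lay near them in adipose progenitors. They are 9 of the 21887 protein-coding genes of the gene table used here, and were chosen by name; their entries are the rows of either deposited table that give one of them as the gene. In the PDGFRa+ list, 5 of 10402 peaks met this rule and belonged to 3 of the 9 genes, Sgk1, Glul and Ddit4. In the CD137+ table, 0 of the 30 listed genes were among them.

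The study used chromatin immunoprecipitation and sequencing (ChIP-seq) of GR in cells of C57BL/6 mice sorted with magnetic beads for CD137, a receptor of the TNF family, or for PDGFRa (CD140+ in the labels), a receptor for platelet-derived growth factor that marks progenitors of fat cells. The 4 libraries were a GR immunoprecipitate and an input of PDGFRa+ cells and a GR immunoprecipitate and an input of CD137+ cells. All 4 groups came from adipose tissue, had been through an adipogenic cocktail and carried dexamethasone, a synthetic glucocorticoid, at 1 µM, so no untreated cells were compared. Each group was 1 library, with no replicate check of any value and no test. The labels do not say which fat depot gave which cells or how many animals were used, read depths are unknown, and the input libraries were not analysed here. Peak lists do not measure expression, so neither the cell type labels nor the induction of the 9 genes could be checked.

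GR rests in the cytoplasm until it binds a hormone, then enters the nucleus and binds DNA as a dimer at the glucocorticoid response element, a pair of half-sites in inverted order. Such sites often lie far from the genes they act on, and which of them are used differs between cell types. The 9 genes carry out several arms of the response: restraint of inflammation (Tsc22d3, Nfkbia), control of growth signalling (Sgk1, Ddit4, Errfi1), nitrogen metabolism (Glul), and the handling of metal ions and iron carriers (Mt1, Mt2, Lcn2).

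Of the 9 genes, 3, or 33.3%, were the nearest gene of a PDGFRa+ peak at any distance, and 22.5% of all protein-coding genes were. The difference is a matter of about 1 gene, and with 9 genes it is not read as a result about them. The 9 were short, with a median length of 3.24 kb against 17.2 kb over all protein-coding genes, and short genes were less often the nearest gene of a peak. Of the 7 members under 20 kb, 2 had a peak (Glul and Ddit4), and 14.0% of all genes under 20 kb did. Of the 2 longer members, Sgk1 had peaks and Tsc22d3 had none, and 32.6% of all longer genes had a peak. None of the 9 had a peak within 3 kb of a start site, a window in which 3.39% of all genes had one.

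**Figure D1:**
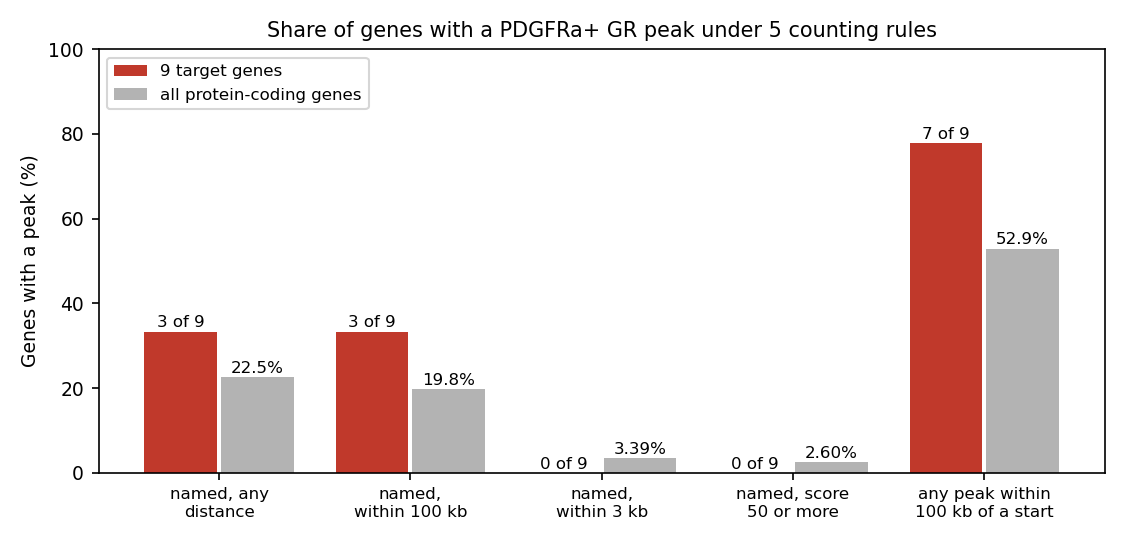
Percentage of genes with a PDGFRa+ GR peak (vertical axis) for the 9 target genes (red) and all protein-coding genes (grey) under 5 counting rules. The first 4 rules count peaks listed under the gene, and the last counts any peak within 100 kb of a start site. The 9 genes stand at 3, 3, 0, 0 and 7 of 9, against 22.5%, 19.8%, 3.39%, 2.60% and 52.9%. The last grey bar is over the 17492 protein-coding genes with a promoter start site, and the other grey bars are over all 21887.

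Sgk1 encodes serum- and glucocorticoid-regulated kinase 1, which acts on ion channels and on FOXO factors. It carried the highest score of the 9 genes. One peak, at chr10:21656673-21656823 as deposited, had a score of 49 and lay -41730 bp from the start site named in the list, negative distances being upstream. A second, at chr10:21657024-21657169, had a score of 26 and lay at -41382 bp. The deposited score is a whole number per peak whose scale is not stated, with a lowest value of 20 and a median of 33 over the list. Many peaks share a score. A score above 49 was held by 8.88% of the peaks and one of 49 or more by 20.5%. A score above 26 was held by 82.8% and one of 26 or more by 94.0%. The pair thus joined a peak from the upper part of the list with one from its lower part.

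The Sgk1 peaks were 200 bp apart and spanned 497 bp together. A neighbouring peak within 500 bp was uncommon, being found for 0.692% of the peaks of the list. Both were annotated to intron 2 of 13 of the longest Sgk1 transcript and outside repeats. The gene has 6 start sites in the RefSeq promoter table, over 112482 bp. The stronger peak lay 54758 bp downstream of the first start site and upstream of the other 5, at distances from -41730 to -57724 bp. It was thus inside the gene for the longest transcript and outside it for those that begin at the other 5 start sites.

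**Figure D2:**
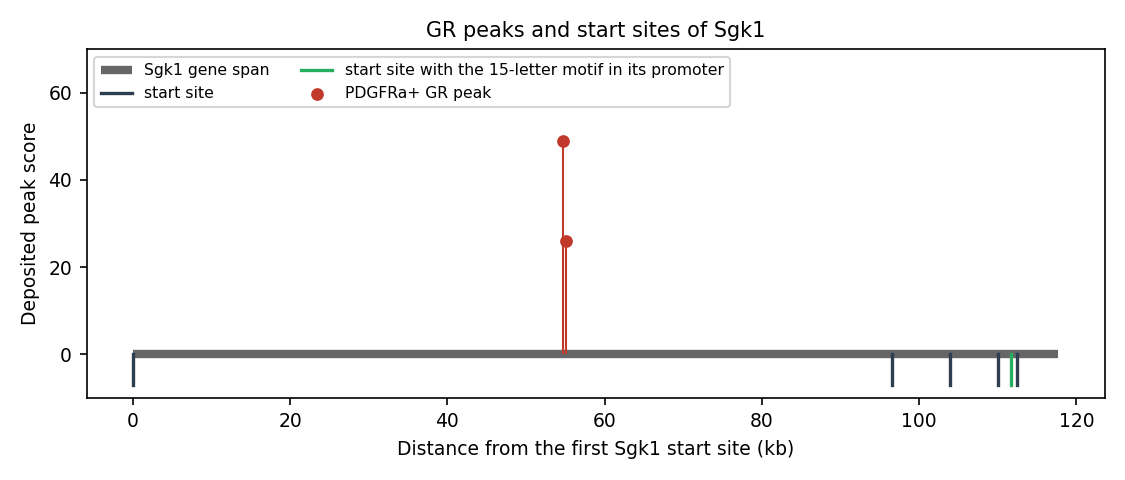
Deposited score (vertical axis) of the 2 PDGFRa+ GR peaks of Sgk1 by distance in kb from the first start site (horizontal axis), with the gene span in grey and the 6 start sites as ticks below it. The peaks, with scores of 49 and 26, stand side by side between the first start site and the other 5, and the green tick is the start site whose promoter holds the 15-letter motif.

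The promoter windows of the 9 genes, 250 bases before to 50 after each start site, were searched for the response element, since known elements of some of these genes lie near their start sites. The sequences are RefSeq's for GRCm38.p6. The full element was spelled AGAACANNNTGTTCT, with N for any base, and being its own reverse complement it reads the same on both strands. It was found in 3 of 32851 promoters (0.00913%), and 1 of these belonged to Sgk1. A looser spelling, GNACANNNTGTNC, also its own reverse complement and contained in the full element, was found in 156 promoters (0.475%). Of the 17 promoters of the 9 genes, 2 held it, that of Sgk1 start site 5, counted in the direction of transcription, and that of Mt1. The half-site TGTTCT, on either strand and part of the full element, was in 19.0% of all promoters and in 4 of the 17, 3 of them of Sgk1 and 1 of Tsc22d3.

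The promoters of Sgk1, with the full element, and of Mt1, with the looser spelling only, are shown with the matched letters in capitals. Beside them is that of Mt2, which holds neither spelling and lies next to Mt1. That of Sgk1 is at chr10:21993640-21993939, that of Mt1 at chr8:94178839-94179138 and that of Mt2 at chr8:94172368-94172667, all on the plus strand.
Sgk1, start site 5: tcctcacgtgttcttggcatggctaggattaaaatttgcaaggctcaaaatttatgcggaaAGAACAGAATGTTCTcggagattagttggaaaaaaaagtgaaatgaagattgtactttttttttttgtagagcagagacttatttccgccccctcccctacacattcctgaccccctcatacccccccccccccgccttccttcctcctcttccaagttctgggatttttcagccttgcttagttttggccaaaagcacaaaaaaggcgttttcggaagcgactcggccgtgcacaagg
Mt1: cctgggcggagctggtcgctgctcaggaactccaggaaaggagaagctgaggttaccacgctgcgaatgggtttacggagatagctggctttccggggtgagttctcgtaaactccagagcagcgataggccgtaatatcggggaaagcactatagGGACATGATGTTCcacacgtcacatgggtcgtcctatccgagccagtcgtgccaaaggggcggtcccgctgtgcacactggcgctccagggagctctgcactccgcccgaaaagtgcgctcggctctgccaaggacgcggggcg
Mt2: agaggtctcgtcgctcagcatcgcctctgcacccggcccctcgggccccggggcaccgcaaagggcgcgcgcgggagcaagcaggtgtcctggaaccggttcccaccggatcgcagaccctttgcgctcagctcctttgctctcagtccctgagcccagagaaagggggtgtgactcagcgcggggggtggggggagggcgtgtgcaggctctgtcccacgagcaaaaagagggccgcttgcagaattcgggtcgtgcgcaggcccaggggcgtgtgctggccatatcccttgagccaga
The Sgk1 element, AGAACAGAATGTTCT, began 189 bases before its start site. The Mt1 match to the looser spelling, GGACATGATGTTC, began 94 bases before the start site of its promoter window. The gene table begins Mt1 at chr8:94178883, inside that window and upstream of the match, so this distance holds for the promoter start site only. No listed peak lay at either match. The listed Sgk1 peaks were at -56948 and -56600 bp from the start site with the element. A motif match is a description of these letters, and the list gives only peaks that passed the authors' calling, so binding at the element below that level was not detectable here.

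Glul encodes glutamine synthetase, which joins ammonia to glutamate. It had 2 peaks, both downstream of its single start site. The stronger, at chr1:155755087-155755296 as deposited, had a score of 41 and lay 8132 bp into the gene, in exon 7 of 7, the last. Peaks annotated as exon made up 1.26% of the list, with peaks annotated to untranslated regions, transcription end sites and promoters counted apart. A score above 41 was held by 23.5% of the peaks, and one of 41 or more by 44.3%. The weaker, at chr1:155770757-155770979, had a score of 31 and lay 23809 bp from the start site in intergenic sequence, 14014 bp past the end of the 9.79 kb gene, in a SINE repeat (ID_B1).

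The Glul peaks were the widest of the 9 genes, at 210 and 223 bp. The least width of the list, 146 bp, was shared by 71.9% of its peaks, and 13.3% and 10.6% were at least as wide as the first and the second Glul peak. The Sgk1 peaks measured 151 and 146 bp and the Ddit4 peak 146 bp. Of the 9 genes Glul had the nearest peak to a start site. A placed peak as near or nearer was found for 8.15% of the 17492 protein-coding genes with a promoter start site.

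Ddit4 encodes REDD1, a stress-induced protein that restrains mTORC1 through the TSC complex. It had 1 peak, at chr10:59432453-59432598 as deposited, with a score of 35, in intergenic sequence outside repeats. It lay at -18007 bp from the start site, upstream of a gene of 2096 bp. A score above 35 was held by 49.5% of the peaks. A further peak, listed under its neighbour Dnajb12 with a score of 33, lay 68.2 kb downstream of the Ddit4 start in intron 1 of 8 of that gene.

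Over the 5 peaks, scores ran from 26 to 49 with a median of 35.0, against 33.0 in the whole list, and 3 of the 5 were above the list's median. Their median distance from a start site was 23809 bp, against 47254.5 bp in the whole list. Of the 5, 2 were intergenic, 2 in an intron and 1 in an exon, and in the whole list 56.3% were intergenic and 37.3% in introns. One lay in an annotated repeat, as did 38.1% of all peaks. None reached a score of 50, which 924 of the 10402 peaks did, and 2.60% of protein-coding genes were the nearest gene of such a peak. Sgk1 and Glul had 2 peaks each; 32.9% of the protein-coding genes with a peak had 2 or more.

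**Figure D3:**
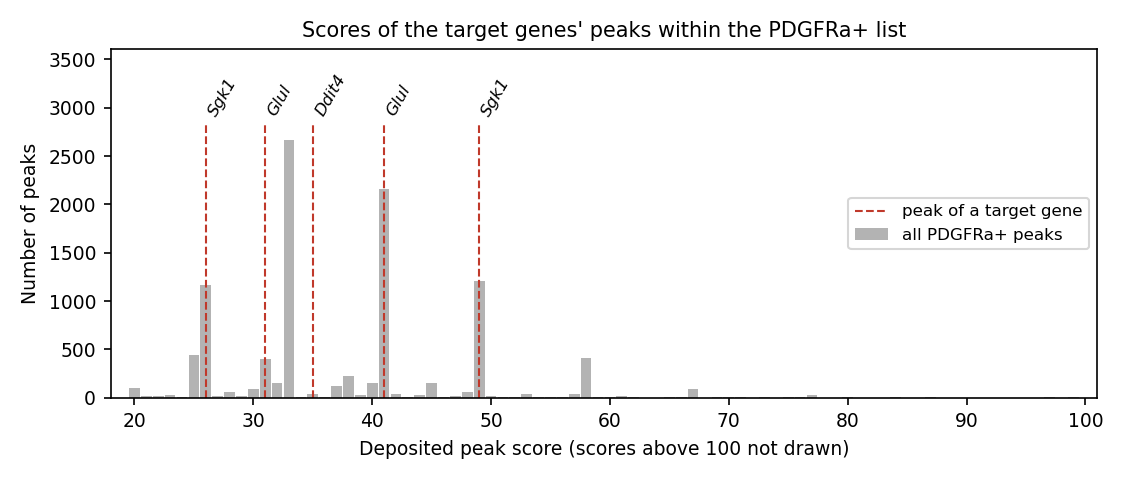
Number of peaks of the PDGFRa+ list (vertical axis, grey bars) at each deposited score up to 100 (horizontal axis), with the scores of the 5 peaks of Sgk1, Glul and Ddit4 as dashed red lines. The 5 lines fall between 26 and 49, in the body of the list, whose median is 33.

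The other 6 members were the nearest gene of no peak: Tsc22d3, Errfi1, Nfkbia, Lcn2, Mt1 and Mt2. A peak close to a short gene can be listed under its neighbour, so the distance from each member to every peak was also taken, whatever gene it was listed under. For this, the distance of a peak to the gene it was listed under was added to the distance between the start sites of both genes, which placed 91.1% of the peaks. By this measure 7 of the 9 members lay within 100 kb of a peak. Of the 17492 protein-coding genes with a start site in the RefSeq promoter table, 52.9% did. The median over the 9 was 41.4 kb to the nearest peak, against 90.9 kb over these 17492 genes. Within 10 kb stood 1 of the 9 (Glul) and 9.50% of the 17492. Peaks that were not placed are left out, so a nearest, next or single peak below is one among placed peaks, except for Tsc22d3.

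**Figure D4:**
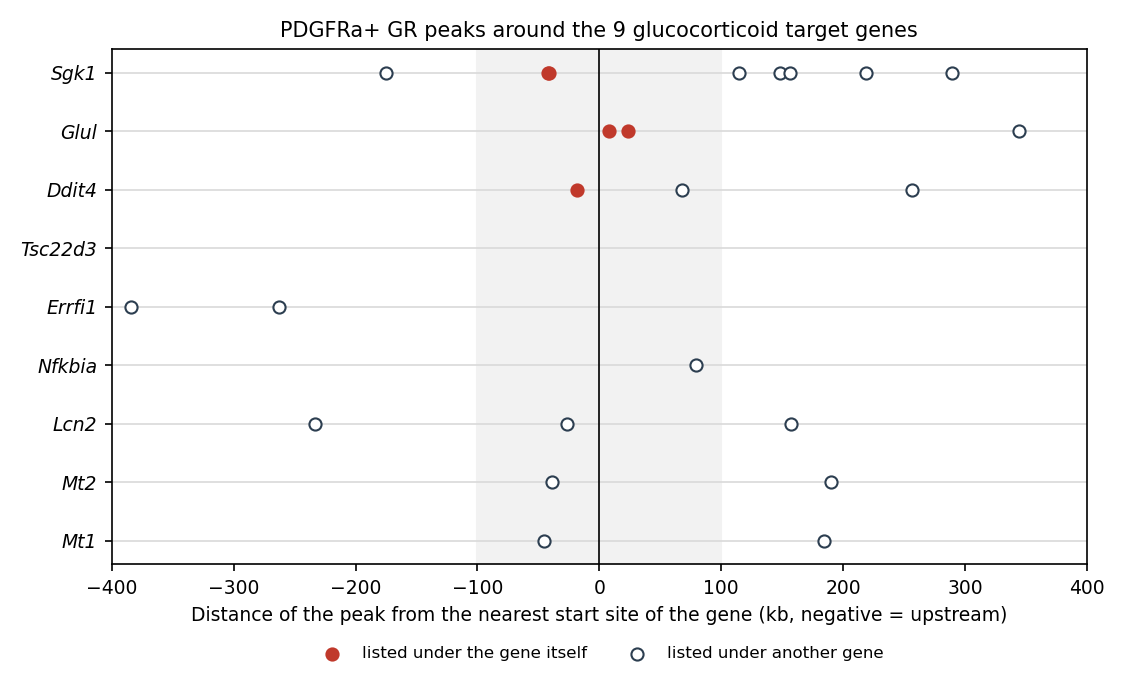
Distance in kb of each placed PDGFRa+ GR peak from the nearest start site of each target gene (horizontal axis, negative upstream). There is 1 row per gene, with filled points for peaks listed under the gene itself and open points for peaks listed under another gene. The shaded band is 100 kb to either side; 7 of the 9 rows have a peak in it, the row of Errfi1 has its nearest at 263 kb, and that of Tsc22d3 has none within 400 kb; the 2 Sgk1 peaks overlap in 1 point.

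Lcn2 encodes lipocalin 2, a secreted carrier of bacterial and cellular siderophores. A peak with a score of 41 lay 26.6 kb upstream of its start site and was listed under Slc25a25, the gene of a mitochondrial ATP-Mg/phosphate carrier, at the transcription end site of that gene. It had no annotated repeat. The next peaks were 157 kb downstream, listed under Pomt1 with a score of 41, and 234 kb upstream, at the promoter of Ak1 with a score of 38.

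Mt1 and Mt2 encode metallothioneins, small cysteine-rich proteins that bind zinc and copper, and stand in 1 cluster with Mt3 and Mt4. The peak nearest to both, with a score of 33, was listed under Mt4 and lay -3305 bp from its start site in a LINE repeat (Lx9). It was 38.7 kb upstream of Mt2 and 45.2 kb upstream of Mt1, so 1 peak accounts for the count of both genes within 100 kb. On the other side of the cluster the nearest peak, with a score of 42, was listed under Herpud1, 184 kb downstream of Mt1 and 190 kb downstream of Mt2.

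Nfkbia encodes IκBα, the inhibitor that holds NF-κB in the cytoplasm. The single placed peak within 400 kb of its start site had a score of 49, equal to the highest of the 9 genes' own peaks. It lay 79.3 kb downstream, in intron 5 of 6 of Psma6, a proteasome subunit gene under which it was listed. Across the 17492 protein-coding genes with a promoter start site, 45.7% had a placed peak as near or nearer.

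Errfi1 encodes MIG6, a feedback inhibitor of the EGF receptor family. Its nearest peaks were 263 kb and 384 kb upstream, with scores of 31 and 41. Both were listed under Slc45a1, at 60960 and 182831 bp from the start site of that gene. They were annotated to introns 12 of 22 and 5 of 22 of a transcript whose gene the annotation does not name. The peaks are thus not shown to lie inside Slc45a1. The nearer lay in an LTR repeat. Of the 17492 protein-coding genes with a promoter start site, 82.3% had a placed peak as near or nearer.

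Tsc22d3 encodes GILZ, the glucocorticoid-induced leucine zipper, one of the most widely used marker genes of the response. No peak lay within 2 Mb of it. The nearest on either side were listed under Tex13a, with a score of 26, and Lhfpl1, with a score of 49. The first was 2.47 to 2.57 Mb and the second 4.62 to 4.72 Mb from the Tsc22d3 start sites, the ranges coming from the difference of position between builds on either side. These peaks stood 7.25 Mb apart, the widest of the 235 gaps between neighbouring peaks on the X chromosome, where the median gap was 60.9 kb. The X chromosome held 2.27% of the peaks and 4.41% of the protein-coding genes, and 8.18% of its protein-coding genes were the nearest gene of a peak, against 22.5% over all chromosomes. The part of this lower share in the lack of a peak at Tsc22d3 was not tested.

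Sgk1, for comparison, lay among many peaks, with 11 placed within 500 kb of its start sites. The median was 4 over the 17492 protein-coding genes with a promoter start site, and the other 8 members had from 0 to 4. Peaks were counted around every start site, so Sgk1, with 6 over 112482 bp, had a wider window than a gene with 1. Of the peaks within 400 kb of an Sgk1 start site, the strongest had a score of 98, which 0.961% of the peaks exceeded. It was listed under E030030I06Rik and lay 148 kb downstream of the nearest Sgk1 start site, in a SINE repeat (B1_Mus1), with 2 other peaks of that gene at 114 kb and 157 kb and scores of 49 and 41.

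Genes of the same families were then followed. Of 17 paralogues and family genes, 5 (29.4%) were the nearest gene of a PDGFRa+ peak, against 22.5% of all protein-coding genes. Of the 5 listed relatives of Nfkbia, 3 (Nfkbie, Nfkbid and Nfkbiz) were among these, and Nfkbib and Bcl3 were the nearest gene of no peak. Nfkbie had a peak with a score of 33 in intron 1 of 5, 2045 bp from the start site, the single family gene with a peak within 3 kb. Nfkbid had one with a score of 33 in its last exon, 4921 bp from the start site. Nfkbiz had 2 in intergenic sequence with scores of 41 and 31, at 39598 and 89338 bp. Mt4 had the peak described above, and Tsc22d1, a relative of Tsc22d3, a peak with a score of 32 in intron 1 of 2, in a LINE repeat. The kinase genes Sgk2 and Sgk3, the REDD2 gene Ddit4l, Mt3 and Tsc22d2 and Tsc22d4 were the nearest gene of none.

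Of 29 genes whose products act with those of the 9, 9 (31.0%) were the nearest gene of a peak, against 22.5% of all protein-coding genes and 32.6% of those of 20 kb or more. The partner genes had a median length of 36.9 kb, above the 17.2 kb of all protein-coding genes. Of the EGF receptor family, which MIG6 inhibits, Egfr, Erbb4 and Erbb3 were the nearest gene of a peak and Erbb2 was not. Egfr held 3 peaks in intron 1 of 27, with scores of 58, 26 and 25 at 24790, 51418 and 5975 bp from the start site. Erbb4, a gene of 1080 kb, held 5 peaks in introns 1 to 3, with scores from 33 to 45, and Erbb3 had 1 with a score of 33. Among the NF-κB genes, Nfkb1 had a peak with a score of 37 in intron 1 of 24, 1992 bp from the start site, and Rela one with a score of 25 at its promoter, at -830 bp. Nfkb2, Relb and Rel, and the kinase genes Ikbkb and Chuk, were the nearest gene of none. Foxo3, a target of SGK1, had 2 peaks with a score of 41 each. The downstream one, at 15486 bp, was annotated to intron 2 of 3. The upstream one, at -47216 bp, was annotated to a different transcript (intron 9 of 11) with no gene named. That peak is thus not shown to lie inside Foxo3. Mtor, the kinase restrained by REDD1, had an intron peak with a score of 38.

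Of 30 other genes induced by glucocorticoids, 12 (40.0%) were the nearest gene of a peak, against 22.5% of all protein-coding genes, and 3 had one within 3 kb of a start site, against 3.39%. The peaks of some of these genes were known when the list was drawn up, so its count is not independent evidence. Hif3a led with a score of 87, at -1639 bp from the start site named in the list and annotated to intron 1 of 14. The nearest placed peak to a Hif3a start site of the promoter table was at 4.11 kb. Its count within 3 kb thus holds for the listed start site only. Bcl6, a repressor gene, scored 67 at 693 bp, and Per1, a clock gene, 38 at -1860 bp. Anxa1, the gene of annexin A1, scored 67 at 375310 bp, and Cebpd, Igfbp1 and Lpin1 scored 49 each at -3708, -3122 and 80950 bp. Of the 30, 3 had a peak with a score of 50 or more, against 2.60% of all protein-coding genes, and none of the 9 classical targets did; with these numbers no difference between the lists is claimed.

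In CD137+ cells none of the 9 genes was in the deposited table, which lists 25 protein-coding genes (0.114% of all), so a count of 0 was likely for any 9 genes. None of their direct protein-coding neighbours was in it either. The chromosomes of 3 members (Glul, Lcn2 and Nfkbia) held a CD137+ interval of the table, at 79.9, 123 and 25.0 Mb from the member. Of the 30 other glucocorticoid-induced genes, 4 were in it, with peak values, in the authors' unit, of 52 for Per1, 37 for Hif3a, 33 for Fkbp5 and 31 for Zbtb16, in a table whose values ran from 28 to 74. Per1, Hif3a and Zbtb16 were also the nearest gene of a PDGFRa+ peak, and Fkbp5 was not. A placed PDGFRa+ peak listed under another gene lay 33.9 kb from an Fkbp5 start site. The tables differ in format and number of entries, so the cell types were not compared.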

How the data were processed

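GR ChIP-seq of 4 libraries was deposited as 2 tables. Per the submitters' processing notes the tools were FastQC, Bowtie2, MACS2, SAMtools and bedtools 2.17.0 with the mm10 build, with no role or threshold; whether peaks were called against the inputs is not given in the sources used here. As deposited, the authors' peak score of the PDGFRa+ list is a whole number of unstated scale, and the deposited distance to the start site is in bp. Per the file headers, the CD137+ table gives a peak signal per gene in an unstated unit. The extraction text of the labels speaks of embryonic cells, unlike the adipose source they give. Scores and signals were used within their own table, and the tables share no build.

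Positions of the list are printed as deposited. Start sites implied by 6219 peaks of genes with 1 start site differed from GRCm38.p6 by a median of 196000 bp, so the list is on another build and no coordinate was converted. Distances to genes other than the listed one were sums of the listed distance and the start-site distance in RefSeq's GRCm38.p6 table. A start site was accepted where its offset matched that of any of 10 neighbouring peaks within 1 kb; 7352 peaks were placed so, 2126 by the distance to placed peaks on both sides with matching offsets, and 924 were not placed. The procedure was tested on simulated data. The simulated peaks took their genes and distances from the same start-site table, so that test does not show the accuracy on the deposited list. All 9 members and all genes of the 3 other lists were matched by symbol or synonym to the gene table, and peaks by gene identifier.

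The members and lists were chosen with earlier results of these data known. All members are named, and of the other lists the genes with a peak within 3 kb, the 5 with the highest score (ties included) and those in the CD137+ table; the other listed genes were named after their values were seen. With 1 library per group no test was made, and listed counts stand beside the share of all protein-coding genes. Shares and medians of placed distances are over the 17492 of these with a start site in the promoter table. Distance, score, repeats and gene matching were varied. Python 3.11.15, pandas 2.3.3, numpy 2.4.6 and matplotlib 3.10.9 were used.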

Additional observations from a re-analysis of the deposited data

How the results depend on the processing

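The number of members with a PDGFRa+ peak (3) fell to 0 when a peak had to lie within 3 kb or have a score of 50 or more, and so did the 5 member peaks; it was 7 when peaks within 100 kb listed under another gene were counted too. Within 3 kb the family list had 1 gene, the partner list 2, the list of other induced genes 3 and all protein-coding genes 742, and with a score of 50 or more these were 0, 1, 3 and 568, against 5, 9, 12 and 4927 at any distance and score. Both settings leave fewer peaks (919 and 924 of 10402). The limit of 100 kb, removal of satellite, rRNA, simple repeat and low complexity peaks, and matching by symbol alone moved no count by over 1.5 times. The CD137+ count was 0 with direct neighbours counted too; no member is in that table, so the window for a peak in both tables could not bear on any value. No paired analysis was possible because each group is 1 library, and no library could be left out. Depth is unknown, so a gene without a listed peak is not shown to be unbound.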

Other observations

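Of the 3 promoters of the mouse table that hold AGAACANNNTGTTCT, one belongs to Sgk1, one to Acnat2, an acyltransferase gene, and one to Gm35041, a long non-coding RNA gene. Acnat2 and Gm35041 were the nearest gene of no PDGFRa+ peak, and the peak nearest to Acnat2 was 146 kb away. The looser spelling GNACANNNTGTNC was in a promoter of 88 protein-coding genes. Of these, 22 (25.0%) were the nearest gene of a PDGFRa+ peak, against 22.5% of all protein-coding genes, 51 (58.0%) lay within 100 kb of any placed peak, against 52.9%, and 3 lay within 3 kb of one, against 3.99%. These shares describe 1 library, and the genes are not replicates.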
